A study of Mus musculus with 6 samples.

Results

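Of the genes of mature oligodendrocytes, 7 that encode secreted or metabolic proteins were followed: *Ptgds*, *Trf*, *Apod*, *Car2*, *Gsn*, *Aplp1* and *Qdpr*. They were taken by gene symbol, all 7 were found among the 24421 entries of the count table, and all 7 were among the 15069 genes tested between genotypes. The libraries came from RiboTag mice, whose ribosomal protein Rpl22 takes on an HA tag once Cre recombinase has acted, so that an antibody to HA can collect ribosomes of recombined cells (the IP). All mice, controls included, carried NG2CreERTM and Rpl22HA/+ and received tamoxifen (100 mg/kg on each of 5 days) at 8 weeks of age, and whole brains were taken 1 month later. The mice called AnkG icKO also carried Ank3F/F, so that Cre also removes *Ank3*, which encodes ankyrin-G, a scaffold protein under the cell membrane. The driver acts in cells that make NG2, which in brain include oligodendrocyte precursors and pericytes, the contractile cells of small vessels. Each library was a pool of 3 animals: 1 control input, 2 control IPs, 1 icKO input and 2 icKO IPs, where the input is homogenate RNA kept before the pull-down. For icKO IP replicate 1 the title says cKO while the genotype label says AnkG icKO.

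Oligodendrocytes do more than wrap axons. They make iron carriers, small lipid-binding secreted proteins and enzymes of acid-base and cofactor metabolism, and transcripts of these proteins are among the most used markers of the mature cell. *Ptgds* encodes the lipocalin-type prostaglandin D2 synthase, a secreted enzyme and lipid carrier that the leptomeninges and choroid plexus also make. *Apod* encodes apolipoprotein D, another secreted lipocalin. *Trf* encodes transferrin, the extracellular iron carrier. *Car2* encodes the cytosolic carbonic anhydrase that interconverts CO2 and bicarbonate. *Gsn* encodes gelsolin, which severs and caps actin filaments and has a secreted form as well. *Aplp1* encodes a membrane protein of the amyloid precursor family that neurons also make. *Qdpr* encodes the dihydropteridine reductase that regenerates tetrahydrobiopterin, the cofactor of the aromatic amino acid hydroxylases.

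In mm10 (GRCm38, GENCODE M21 annotation) the genes lie on 6 chromosomes. *Ptgds* (ENSMUSG00000015090.13) spans chromosome 2, 25466709 to 25470046, on the minus strand, and *Gsn* (ENSMUSG00000026879.14) spans 35256380 to 35307892 of the same chromosome on the plus strand. *Trf* (ENSMUSG00000032554.15) is at chromosome 9, 103204001 to 103230444 (minus), and *Apod* (ENSMUSG00000022548.14) at chromosome 16, 31296192 to 31314808 (minus). *Car2* (ENSMUSG00000027562.12) is at chromosome 3, 14886273 to 14900770 (plus). *Aplp1* (ENSMUSG00000006651.8) is at chromosome 7, 30434982 to 30445535 (minus), and *Qdpr* (ENSMUSG00000015806.12) at chromosome 5, 45434021 to 45450236 (minus). All are protein-coding. Of the exonic bases of *Trf*, 63.5% also belong to the annotated gene *Gm20425* on the same strand, and 18.6% of those of *Qdpr* to the antisense gene *Gm42413*. Neither of these symbols is an entry of the count table, and the strand setting of the counting is not given in the sources used here.

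Sequences before the start sites were taken from RefSeq (GRCm38.p6), which matched 5 of the 7 symbols with 7 start sites, 3 of them of *Gsn*. The windows of both lipocalin genes and of the *Gsn* start that lies farthest upstream are shown, since *Ptgds* changed most between genotypes and *Gsn* stood apart from the other genes. Each line gives the 250 bases before the start, 5′ to 3′ on the gene's strand, and capitals mark CAGCTG, the letters of an E-box, and ACAAAG, letters found in SOX factor sites, each searched on both strands.
Ptgds, chr2:25469750-25469999, minus: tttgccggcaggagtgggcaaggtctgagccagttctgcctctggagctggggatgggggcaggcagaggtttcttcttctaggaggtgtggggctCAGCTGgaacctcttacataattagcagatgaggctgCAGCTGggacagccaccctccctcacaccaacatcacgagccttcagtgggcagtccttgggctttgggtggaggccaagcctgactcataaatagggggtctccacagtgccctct
Apod, chr16:31314809-31315058, minus: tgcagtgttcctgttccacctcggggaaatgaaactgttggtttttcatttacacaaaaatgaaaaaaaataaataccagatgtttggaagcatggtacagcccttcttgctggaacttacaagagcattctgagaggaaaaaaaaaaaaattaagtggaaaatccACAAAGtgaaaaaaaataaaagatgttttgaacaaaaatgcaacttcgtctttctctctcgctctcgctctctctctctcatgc
Gsn, chr2:35256109-35256358, plus: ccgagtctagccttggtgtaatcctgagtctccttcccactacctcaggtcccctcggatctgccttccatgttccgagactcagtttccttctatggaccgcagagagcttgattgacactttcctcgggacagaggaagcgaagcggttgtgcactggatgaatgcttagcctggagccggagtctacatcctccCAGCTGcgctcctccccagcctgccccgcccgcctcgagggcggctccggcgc
The *Ptgds* window held CAGCTG at 2 places, and 3 of the 7 windows held it, against 13% of 32851 such windows of all genes. The matching windows other than that of *Ptgds* were both of *Gsn*, so they are not separate genes. ACAAAG was in 1 of the 7, that of *Apod*, against 16.5% of all windows. These are matches of letters, not measured binding sites.

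Library totals ran from 18968806 to 23930812 counts, at which 3 counts are 0.125 to 0.158 CPM (the usual unit for counts scaled by library size). Levels below are CPM scaled with TMM factors over all 6 libraries. The targeted gene *Ank3* gave 381 CPM in control homogenate against 347 in icKO, and 1389 and 1359 after pull-down in control against 1163 and 1167 in icKO. Its count covers the whole gene, intact exons included, so it is a weak check of the labels. Of 12 precursor markers 12 were higher in IP than in input, as were 27 of 30 other mature oligodendrocyte genes (1 was lower) and 10 of 10 pericyte and smooth muscle genes, a list that shares *Cspg4* with the precursors. All 10 neuron and all 10 microglia markers and 9 of 10 astrocyte markers were lower in IP (edgeR quasi-likelihood test, adjusted p under 0.05, 4 IP against 2 input libraries). Replicate IPs varied beyond sampling noise, with a chi-square per degree of freedom of 2.19 in control and 2.11 in icKO. Titles mark the IPs as biological replicates and leave unsaid if different mice were pooled for each, so the p-values rest on a spread among these libraries that could be technical.

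Together the 7 genes took 0.274% of counts in control homogenate and 0.271% in icKO homogenate. After pull-down they took 0.513% and 0.515% in control and 0.309% and 0.315% in icKO mice (95% Wilson bounds at most 0.0031 points away, for counting error only). Their summed share was thus about equal in the inputs, higher in every IP, and lower in the icKO IPs than in the control IPs.

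**Figure D1:**
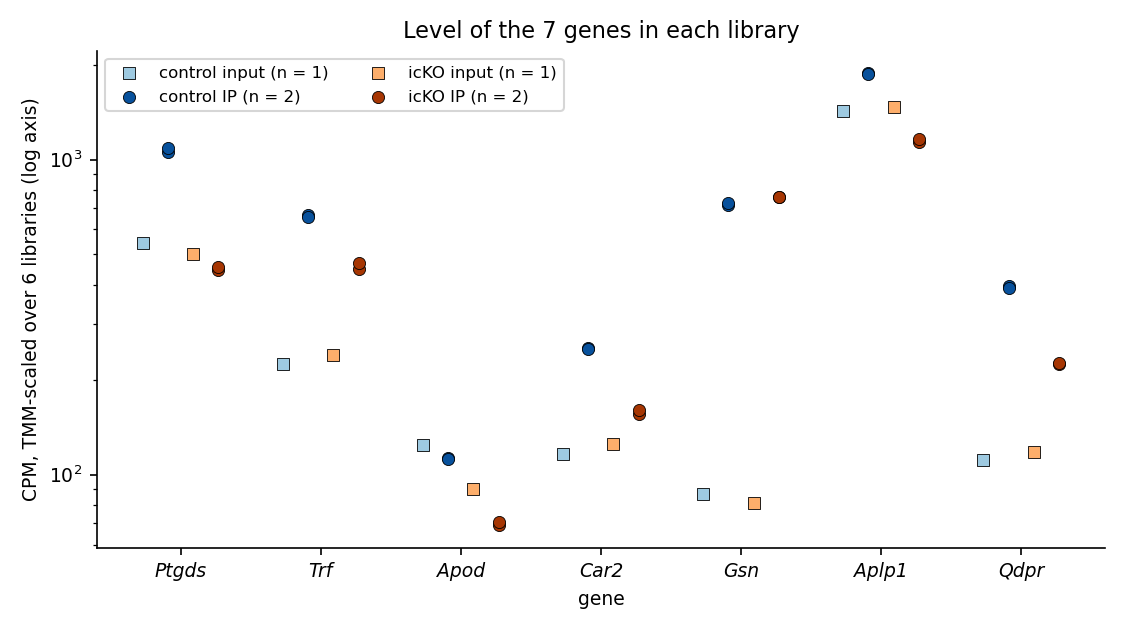
Level of each gene (x axis) in each of the 6 libraries, as CPM scaled with TMM over all libraries on a log axis; squares are inputs (1 library each) and circles IPs (2 libraries each). In 6 of the genes both icKO IP circles lie below both control IP circles, while those of *Gsn* lie slightly above.

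Between genotypes, the question was how removal of *Ank3* in cells of the NG2 lineage changes the transcripts on their ribosomes. The set fell in the icKO IP with the exception of *Gsn*: 6 of 7 passed the test as lower, where 25.2% of all genes tested did, and 1 of 7 as higher, where 22.1% did (47.2% in either direction). The median log2 change of the 7 was -0.68, that of all genes tested 0.0033. On the TMM scale the icKO IP values of all 7 lay outside the control IP values, lower in 6 and higher in 1, but with 2 libraries a side this was so for 72.1% of all genes tested (36.9% lower, 35.2% higher). As shares of the library totals the *Gsn* values overlapped. In bulk RNA such as this, fewer tagged cells of a type and less RNA per cell cannot be told apart. P-values here and below come from edgeR (quasi-likelihood test), adjusted over all genes tested by Benjamini-Hochberg, and errors of log2 changes are SE from 2 against 2 libraries.

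*Ptgds*, the prostaglandin D2 synthase, showed the steepest change. Homogenate held 543 CPM in control and 501 in icKO mice, while the pull-down held 1057 and 1087 CPM in control and 446 and 457 in icKO. The control IPs are the highest libraries and the icKO IPs lie below both inputs. The log2 change between IPs was -1.24 ± 0.03 (adjusted p = 2.17e-28), which leaves 42.2% of the control level, and only 0.345% of the genes tested had a lower value. Pericyte markers moved the same way: 9 of 10 fell, 1 (*Cspg4*) rose and the median was -0.94. Their summed level was 2066 and 2105 CPM in the control and 1551 and 1595 CPM in the icKO IPs. Of these sums *Cspg4*, which precursors share, made up 894 and 907 CPM in control and 934 and 972 CPM in icKO. Of 11 leptomeningeal fibroblast markers 2 fell and 1 rose (median -0.03), with summed levels of 2366 and 2367 against 2293 and 2304 CPM, most of it *Pdgfra*, which precursors share. In that list *Lum* was nearly absent (0.05 to 0.28 CPM in the IPs) and *Mgp* fell from 26.1 and 29.7 to 10.9 and 9.39 CPM (-1.45). The 1 that rose, *Col1a1*, went the other way from 7.92 and 8.89 to 23.6 and 20.9 CPM (1.41). Of 10 choroid plexus markers 2 rose and 1 fell (median 0.28), with the transthyretin gene *Ttr* at 0.12. The 1 that fell, *Enpp2* (-0.21), is also in the list of other mature oligodendrocyte genes. Those that rose were low in the IPs, *Otx2* at 0.38 to 1.16 CPM and *Clic6* at 3.91 to 6.69 CPM. The part of these cells in the *Ptgds* change was not tested.

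*Apod*, the other lipocalin, had 1284 to 2738 counts in a library and the lowest counts of the set in every IP, though not in the inputs. Control mice gave 124 CPM in homogenate and 113 and 112 after pull-down, and icKO mice gave 90.0 and then 69.1 and 71.0. Here the inputs differ too, and the highest value is that of the control input. The log2 change between IPs was -0.68 ± 0.05 (adjusted p = 1.50e-13).

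*Trf*, the iron carrier, had 224 CPM in control and 240 in icKO homogenate, and its IP levels were 664 and 657 CPM for control and 450 and 471 for icKO. It fell by 0.52 ± 0.03 on the log2 scale (adjusted p = 4.81e-17), the smallest of the 6 falls, and icKO IPs stayed above both inputs.

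*Car2*, the carbonic anhydrase, had IP levels of 253 and 250 CPM in control against 155 and 161 in icKO mice, over 116 and 125 CPM in the respective homogenates. Its log2 change was -0.66 ± 0.03 (adjusted p = 5.36e-17), and the 4 IP libraries were all above the inputs. Red blood cells also make this enzyme. The 4 globin genes of the erythrocyte list are listed at 0 in all libraries, inputs included, which cannot be read as absence of blood RNA, since *Alas2* was at 19.7 CPM in the control input. The list's 2 testable genes, *Alas2* and *Slc4a1*, both fell in the icKO IP. The list summed to 5.44 and 5.87 CPM in the control IPs, 2.36 and 2.60 in the icKO IPs, and 26.2 and 8.85 in the control and icKO inputs. Their part in the *Car2* values was not tested.

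*Qdpr*, the reductase of the pterin cofactor, went from 112 CPM in homogenate to 396 and 392 in the pull-down of control mice, and from 118 to 224 and 226 in that of icKO mice. The log2 change was -0.81 ± 0.03 (adjusted p = 6.47e-21), the second largest of the set.

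*Aplp1*, the amyloid precursor relative, was the gene with the most counts. Homogenates held 1422 CPM (control) and 1470 (icKO), control pull-downs 1877 and 1868, and icKO pull-downs 1133 and 1158. The control IPs lie above both inputs and the icKO IPs below both. The log2 change was -0.71 ± 0.02 (adjusted p = 2.25e-23). The 10 neuron markers, of a cell type that also makes *Aplp1* and *Qdpr*, had a median change of 0.06 between IPs (4 rose, 2 fell). Their summed levels were 2441 and 2493 CPM in the control and 2744 and 2681 CPM in the icKO IPs. Of these sums *Camk2a* alone made up 982 and 983 CPM in control and 1205 and 1210 CPM in icKO. Both markers that fell, *Snap25* (-0.12) and *Tubb3* (-0.20), changed less than *Aplp1* or *Qdpr*. The part of neurons in the *Aplp1* and *Qdpr* changes was not tested.

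*Gsn*, the actin-severing gelsolin, was at 86.6 CPM in control and 81.1 in icKO homogenate. Its IP levels were 719 and 730 CPM (control) and 762 and 762 (icKO). On this scale both icKO IPs were above both control IPs, by a log2 change of 0.08 ± 0.02 (adjusted p = 0.0097). This small rise rests on the setting: it was not called without control IP replicate 1 (0.06, adjusted p = 0.0738) or on a scale set by other cell types' markers (0.08, adjusted p = 0.117), and it was -0.01 with library totals (adjusted p = 0.76).

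**Figure D2:**
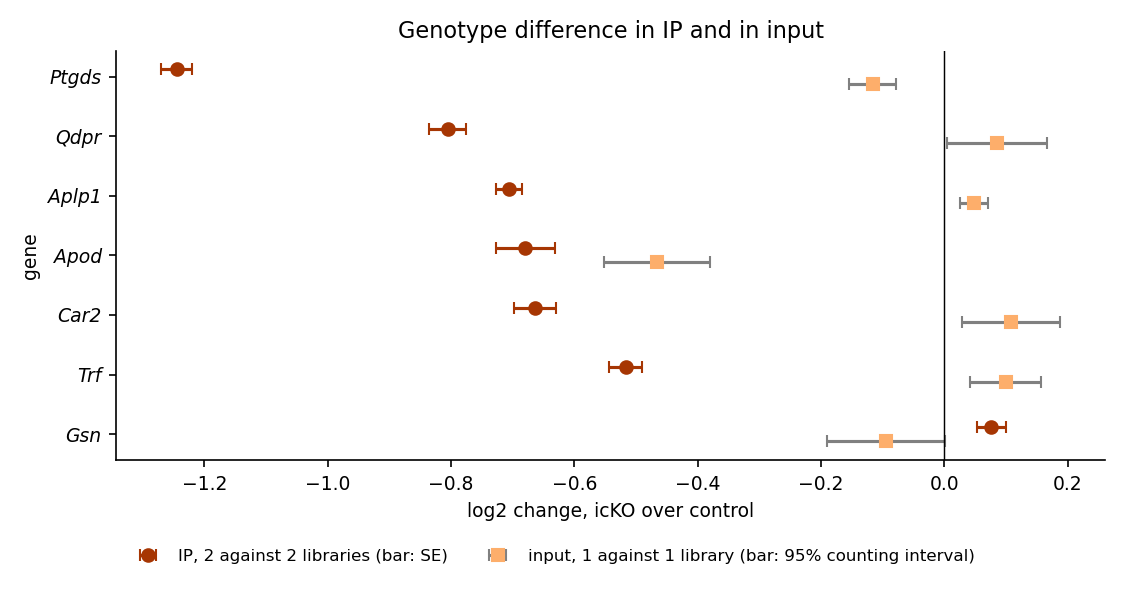
Log2 change of icKO over control for each gene (y axis, ordered by the change in IP). Circles are the fit of 2 against 2 IP libraries with SE, squares the ratio of the single inputs with a 95% counting interval; *Ptgds* has the lowest IP value (-1.24) and *Apod* the lowest input value (-0.47).

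The inputs, with 1 library a genotype, have no replicate check, and no test was made. Beside a median of 0.02 over all genes (log2, icKO over control), *Trf* was at 0.10 (95% counting interval 0.04 to 0.16), *Car2* at 0.11 (0.03 to 0.19), *Qdpr* at 0.08 (0.0035 to 0.17) and *Aplp1* at 0.05 (0.02 to 0.07). *Gsn* was at -0.09 (-0.19 to 0.0011) and *Ptgds* at -0.12 (-0.15 to -0.08). *Apod* was at -0.47 (-0.55 to -0.38), 72.4% of the control input, and 6.61% of genes had a lower ratio. Endothelial markers were lower in the icKO input as well: all 10 were below 0 with a median of -0.32. They summed to 571 CPM in the control and 506 CPM in the icKO input, of which *Bsg* made up 429 and 398 CPM. In the IPs 3 of these 10 fell and 1 rose, with sums of 282 and 285 in the control and 220 and 225 CPM in the icKO libraries. Their part in the *Apod* values was not tested.

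The genotype change in IP was then set against that in input in a fit of 4 groups, in which the spread of the paired IPs stands in for that of each single input. The difference of the changes passed the test for all 7 genes, lower in 6 (13.9% of all genes tested were) and higher in 1 (9.67%; 23.6% in either direction). It was -1.13 ± 0.04 for *Ptgds* (log2, adjusted p = 3.18e-18), -0.89 ± 0.06 for *Qdpr* (2.11e-12), -0.77 ± 0.07 for *Car2* (2.41e-10), -0.76 ± 0.04 for *Aplp1* (3.20e-16) and -0.62 ± 0.05 for *Trf* (1.42e-10), all adjusted p. So for these genes the change in IP lay below that in homogenate, where only *Ptgds* among them was below 0. For *Apod* it was -0.22 ± 0.08 (adjusted p = 0.0481) and for *Gsn* 0.17 ± 0.06 (adjusted p = 0.0340). Both calls were lost in DESeq2 (adjusted p = 0.227 and 0.116). That of *Apod* was also lost without control IP replicate 1, control IP replicate 2 or icKO IP replicate 1 (0.0829, 0.078 and 0.0839), and that of *Gsn* without control IP replicate 1 (0.0632).

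The level in IP against input was read as a guide to how far each transcript follows the tagged cells. Whether a gene lies above or below input depends on the scale, as given below. Among the 7, *Gsn* was far above input in both genotypes and *Apod* below it in both, and the other genes lay between. Over both genotypes (4 IP against 2 input libraries, genotype as a term) 4 of 7 were higher, where 34.8% of all genes tested were, and 1 of 7 lower, where 35.1% were (70% in either direction). *Gsn* was 8.82-fold above input (log2 3.14 ± 0.08, adjusted p = 3.84e-09), *Qdpr* 2.55-fold (1.35 ± 0.17, 4.98e-05), *Trf* 2.35-fold (1.23 ± 0.13, 1.27e-05) and *Car2* 1.63-fold (0.71 ± 0.14, 0.0015). *Apod* was at -0.26 ± 0.07 (adjusted p = 0.0094). *Ptgds* (0.38 ± 0.20, adjusted p = 0.116) and *Aplp1* (-0.0029 ± 0.14, adjusted p = 0.986) did not pass. *Ptgds* was at -0.15 without the control input and 0.98 without the icKO input, and *Aplp1* at -0.36 and 0.39. With 1 input left, such a fit compares IP and input within 1 genotype only. These values are thus nearly those within each genotype given next, not a separate check.

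Within each genotype the errors were smaller, because the spread in the 4-group fit comes from the IP pairs alone. The variation of each single input was not measured, so the small errors and p-values do not make these results firmer. The within-genotype values share the IP libraries with the comparison of genotypes, so the pattern below restates the differences just given. In control mice 6 of 7 genes were higher in IP (34.4% of all genes tested) and 1 lower (33.9%; 68.3% in either direction). *Gsn* was at 3.06 ± 0.04, *Qdpr* at 1.82 ± 0.04, *Trf* at 1.56 ± 0.04, *Car2* at 1.11 ± 0.05, *Ptgds* at 0.98 ± 0.03 and *Aplp1* at 0.40 ± 0.03 (log2, adjusted p from 3.12e-32 to 1.10e-14). *Apod* was at -0.15 ± 0.05 (adjusted p = 0.0169), a call that DESeq2 did not give (adjusted p = 0.143). In icKO mice 4 were higher (34.7%) and 3 lower (34.8%; 69.4% in either direction). There *Gsn* was at 3.23 ± 0.04, *Trf* at 0.94 ± 0.04, *Qdpr* at 0.93 ± 0.04 and *Car2* at 0.34 ± 0.05, while *Ptgds* was at -0.15 ± 0.03, *Aplp1* at -0.36 ± 0.03 and *Apod* at -0.36 ± 0.06 (adjusted p from 1.39e-32 to 1.17e-04). *Ptgds* and *Aplp1* thus stood above input in control and below it in icKO brains. When libraries were scaled to markers of other cell types, which the pull-down depletes, 1.87 to 1.98 was added to the typical gene and all 7 were above input.

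**Figure D3:**
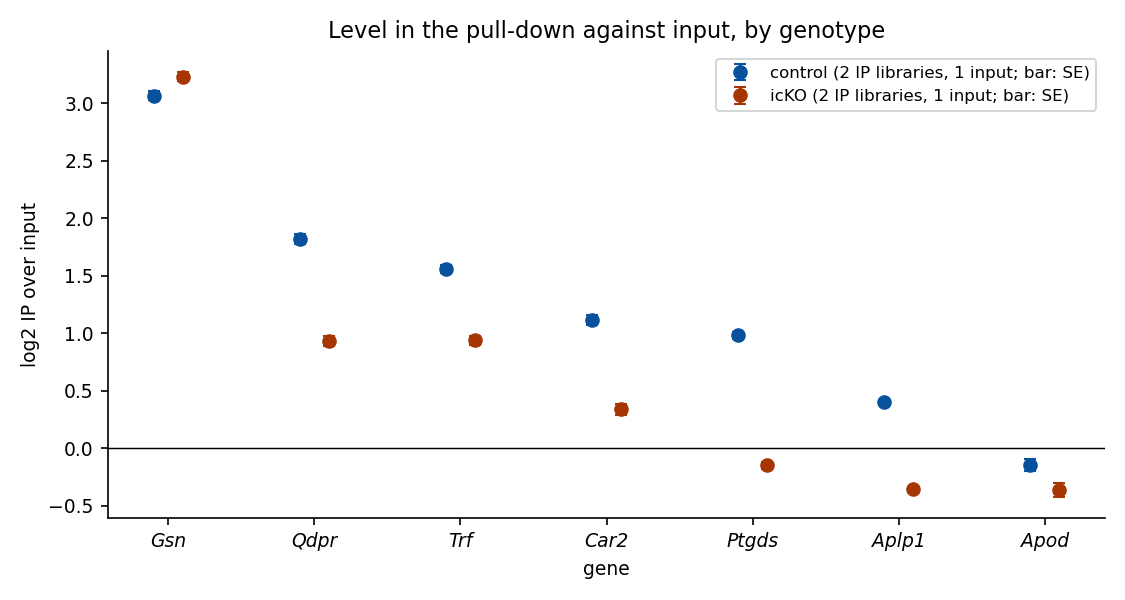
Log2 level in IP over input (y axis) for each gene, in control (blue) and icKO (red) mice, with SE from a fit of 4 groups. *Gsn* lies above 3 in both, and *Ptgds* and *Aplp1* change from above 0 in control to below 0 in icKO.

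Levels of different genes were compared only per length, as TMM-scaled CPM per kilobase of exon. In the control IPs the order was *Ptgds* (650 ± 13.2), *Aplp1* (621 ± 1.98), *Gsn* (229 ± 2.44), *Qdpr* (220 ± 1.58), *Trf* (199 ± 1.59), *Car2* (104 ± 0.916) and *Apod* (43.6 ± 0.154; SD, n = 2 each). In the icKO IPs it was *Aplp1* (380 ± 5.96), *Ptgds* (274 ± 4.37), *Gsn* (241 ± 0.0276), *Trf* (139 ± 4.42), *Qdpr* (126 ± 0.573), *Car2* (65.3 ± 1.59) and *Apod* (27.2 ± 0.514). No neighbours in either order overlapped between libraries, although *Ptgds* and *Aplp1* in control differed by only 1.05 times and *Gsn* and *Qdpr* by 1.04 times. The last pair turned round when the longest transcript was used as the length (273 and 286). In the inputs *Gsn* was last, at 27.4 in control and 25.7 in icKO, and *Aplp1* first at 471 and 487. *Gsn* therefore moved from the last place in homogenate to the third in the pull-down, and *Ptgds* from the first to the second place between control and icKO IPs.

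To see whether the genes changed like other transcripts of the mature cell, libraries were scaled to 30 mature oligodendrocyte genes outside the set, among them *Mbp*, *Mog* and *Cnp*. Of these 30 genes 27 fell and 1 rose between genotypes (median -0.75, range -1.24 to 0.50). *Aplp1* (0.02 ± 0.03, adjusted p = 0.51), *Apod* (0.04 ± 0.05, adjusted p = 0.399) and *Car2* (0.06 ± 0.04, adjusted p = 0.13) did not pass on this scale, where 85.7% of all genes tested were higher and 0.584% lower (86.3% in either direction). *Gsn* (0.80 ± 0.03, adjusted p = 3.81e-22) and *Trf* (0.21 ± 0.03, 2.65e-07) were higher relative to these genes. *Ptgds* was lower (-0.52 ± 0.03, adjusted p = 5.19e-17), and its change between IPs was below that of each of the 30, the lowest of which was also at -1.24. *Qdpr* was at -0.08 ± 0.03 (adjusted p = 0.0231), a call lost without control IP replicate 1 (0.129) or icKO IP replicate 2 (0.163). These p-values treat the scale as known and leave out the spread among the 30 genes.

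**Figure D4:**
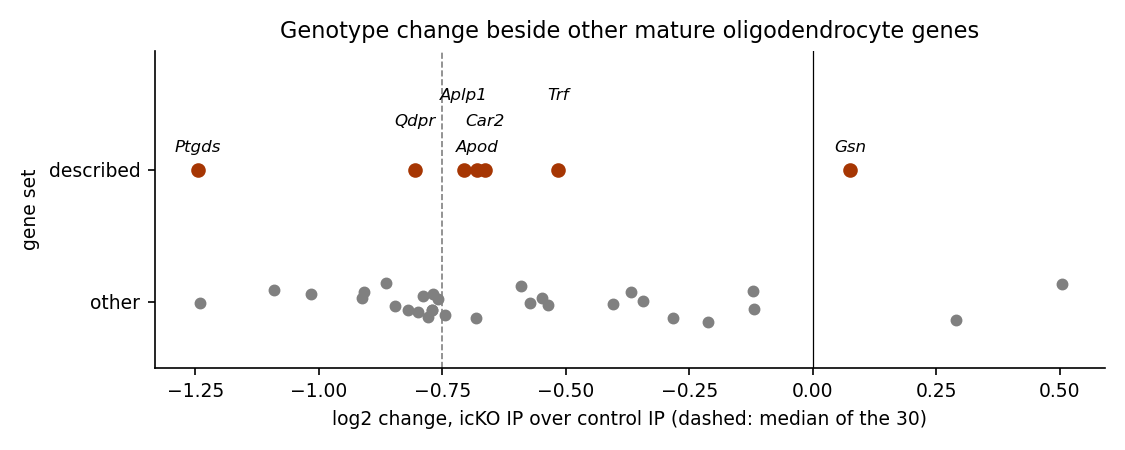
Log2 change of icKO IP over control IP (x axis) for the 7 genes (upper row, red) and 30 other mature oligodendrocyte genes (lower row, grey, spread vertically for sight only), with the median of the 30 (-0.75) dashed. *Ptgds* lies at the far left and *Gsn* is exceeded by 2 of the 30.

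Genes whose level followed each member most closely over the 6 libraries were found among 10086 genes of at least 10 CPM, by the distance between centred log2 profiles. These values describe 6 libraries that share 2 genotypes and 2 fractions. Nearest to *Ptgds* were *Mgp*, a matrix protein gene of the leptomeningeal list (0.30), *Bet1* (0.31) and *Rhob* (0.48). *Trf* lay near the oligodendrocyte tubulin *Tubb4a* (0.07), *Prr5l* (0.08) and the anion exchanger *Slc4a2* (0.09). *Qdpr* lay near *Gna12* (0.08), *Litaf* (0.10) and *Carhsp1* (0.14), *Car2* near *Gnai2* (0.11), *Map6d1* (0.12) and *Endod1* (0.14), and *Aplp1* near *2310022B05Rik* (0.07), *Dazap2* (0.09) and *Hmgn1* (0.09). *Apod* had no neighbour closer than *Fundc1* (0.22), followed by *Commd3* (0.23) and the glucose transporter gene *Slc2a1* (0.24). *Gsn* lay near *Lima1*, which encodes an actin-binding protein (0.16), *Abca6* (0.18) and *Abtb2* (0.22). No gene of the set was among the 3 nearest of another, and the closest pair was *Trf* and *Qdpr* (0.33).

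The pathways and families around the 7 genes were read in the same fit, counting genes outside the set. The counts below stand against 22.1% of all genes tested that were higher and 25.2% that were lower. Of 18 prostaglandin genes 3 rose and 2 fell (median -0.16). The thromboxane receptor gene *Tbxa2r*, which was at 0.50 and 0.44 CPM in the inputs, fell from 11.5 and 11.6 CPM in the control IPs to 3.97 and 4.03 in the icKO IPs (log2 -1.52 ± 0.16, adjusted p = 1.15e-09). *Ptges3*, a co-chaperone gene also known as cytosolic prostaglandin E synthase, fell by 0.34 (adjusted p = 1.29e-07) and was at 0.39 on the oligodendrocyte scale. The cyclooxygenase gene *Ptgs1* rose by 0.44 (adjusted p = 0.0270), a call lost in DESeq2 (0.103) and with library totals (0.0734), and without control IP replicate 1 (0.111) or icKO IP replicate 1 (0.136). The other prostaglandin D2 synthase, *Hpgds* (0.38, adjusted p = 0.113), and the inducible cyclooxygenase *Ptgs2* (0.12, adjusted p = 0.69) did not pass.

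Of 8 genes of lipid carriers 5 fell and none rose (median -0.36). *Dbi*, which binds long-chain acyl-CoA, fell by 0.93 ± 0.04 (adjusted p = 4.94e-19) from 190 and 187 to 95.8 and 101 CPM. *Fabp5*, a fatty acid binding protein gene, fell by 0.64, the apolipoprotein gene *Apoe* by 0.53 and the clusterin gene *Clu* by 0.22 (adjusted p from 1.21e-18 to 2.07e-05). In the single inputs *Clu* was lower in icKO as well, at 542 CPM against 613 in control. *Dbi* (62.8 against 54.1), *Fabp5* (95.9 against 82.6) and *Apoe* (1513 against 1477) were higher in the icKO input. On the oligodendrocyte scale, which adds 0.72 to every value, *Dbi* stayed below 0 (-0.21) while *Fabp5* (0.09), *Apoe* (0.20) and *Clu* (0.50) turned above it.

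Of 21 iron genes tested, 4 rose and 4 fell (median -0.01), shares near those of all genes in both directions. The ferritin chains *Fth1* and *Ftl1*, which store iron, fell by 0.39 and 0.30 (adjusted p = 9.75e-13 and 1.81e-05). The heme oxygenase *Hmox2* fell by 0.43 (adjusted p = 1.76e-06). On the oligodendrocyte scale *Fth1*, *Ftl1* and *Hmox2* were at 0.34, 0.42 and 0.29. In the single inputs *Fth1* was lower in icKO as well, at 1105 CPM against 1358 in control. *Ftl1* was at 105 CPM in both inputs, and *Hmox2* at 58.3 in control and 60.2 in icKO. The mitochondrial iron importer *Slc25a37* rose by 0.68 ± 0.13 (adjusted p = 3.35e-05). The metal transporter *Slc39a14* was at 0.32 (adjusted p = 0.0266), a call lost with library totals (0.106), in DESeq2 (0.0962) and with the gene length trend removed (0.224), and without control IP replicate 1 (0.189) or icKO IP replicate 2 (0.224). *Tfrc*, the transferrin receptor gene, was at 82.9 and 80.4 CPM in control and 85.9 and 75.4 in icKO IPs, which overlap (-0.01 ± 0.06, adjusted p = 0.863). Its single inputs were at 114 CPM in control and 89.7 in icKO.

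The list of carbonic anhydrases and bicarbonate or proton carriers also held the astrocyte marker *Aqp4*. Of its 19 tested genes 10 rose, *Aqp4* among them, and 5 fell (median 0.26), where 22.1% and 25.2% of all genes did. Those that fell with *Car2* included the membrane-bound *Car14* (-0.88 ± 0.08, adjusted p = 2.55e-11), from 46.3 and 45.4 to 26.4 and 23.2 CPM, and the endothelial *Car4* (-0.80 ± 0.10, 9.68e-08). Both kept their sign but not their call on the oligodendrocyte scale (-0.16 and -0.08, adjusted p = 0.0586 and 0.484). *Car12* (0.94 ± 0.17, adjusted p = 1.85e-05) and *Car7* (0.54 ± 0.14, 0.0015) rose. In the same IPs the astrocyte markers, of which *Aqp4* is also in this list, had a median of 0.17 (6 of 10 rose, 1 fell). They summed to 1864 and 1861 CPM in control and 1930 and 1899 CPM in icKO. Of these sums *Slc1a2* alone made up 1361 and 1348 CPM in control and 1449 and 1417 CPM in icKO. The part of astrocytes in the rises of this list was not tested.

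In the gelsolin family 3 of 6 genes rose and none fell (median 0.53), but *Scin*, *Vill*, *Avil* and *Capg* were low in the IPs (0.37 to 5.25 CPM). Of the better measured genes *Svil* rose, while *Flii*, at 97.8 to 101 CPM, was at 0.0015 (adjusted p = 0.983). The supervillin gene *Svil* went from 79.2 and 76.1 to 107 and 104 CPM (0.45 ± 0.05, adjusted p = 2.66e-09). *Scin*, the gene of the gelsolin relative scinderin, was low in control IPs (0.57 and 0.37 CPM, 12 and 9 counts). It was at 4.88 and 3.65 CPM in the icKO IPs (91 and 66 counts), a log2 change of 3.18 ± 0.35 (adjusted p = 4.55e-09). The inputs were at 0.73 and 0.83 CPM. The filter on low counts kept *Scin* only through the icKO IPs, where it was high, so its call and p-value give no separate support.

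Of 19 genes of the amyloid precursor family and its proteases and binding partners 10 fell and none rose (median -0.16). *App* fell by 0.35 ± 0.02 (adjusted p = 1.37e-15), *Aplp2* by 0.31 ± 0.02 (1.87e-12) and the beta-secretase gene *Bace1* by 0.29 ± 0.04 (2.59e-07), against 0.71 for *Aplp1*. *Itm2b*, whose protein binds the amyloid precursor (-0.53, adjusted p = 1.84e-16) and the gamma-secretase subunit gene *Psenen* (-0.88, adjusted p = 1.17e-06) had the largest falls of the list, that of *Psenen* exceeding that of *Aplp1*. On the oligodendrocyte scale *App* (0.38), *Aplp2* (0.41), *Bace1* (0.44) and *Itm2b* (0.20) were above 0, and *Psenen* was at -0.15 (adjusted p = 0.278).

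Around *Qdpr*, 2 of 10 tetrahydrobiopterin genes rose and 2 fell (median -0.15). The aromatic amino acid decarboxylase gene *Ddc* fell from 24.6 ± 0.931 to 13.6 ± 1.01 CPM (SD, n = 2; log2 -0.85 ± 0.10, adjusted p = 2.79e-08; -0.12 on the oligodendrocyte scale, adjusted p = 0.265). *Nos1*, which encodes the neuronal nitric oxide synthase, rose by 0.37 (adjusted p = 0.0010). Of the synthesis enzymes, *Spr* was at -0.33 (adjusted p = 0.0345), a call lost in DESeq2 (0.109), among genes of at least 5 CPM (0.0515), with the length trend removed (0.0563) and without any one of the 4 IP libraries (0.0551 to 0.158). *Pts* (-0.15, adjusted p = 0.524) and *Pcbd1* (-0.40, adjusted p = 0.296) did not pass, and *Gch1*, the first enzyme of synthesis, was too low in the IPs to be tested (0.11 to 0.45 CPM).

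**Figure D5:**
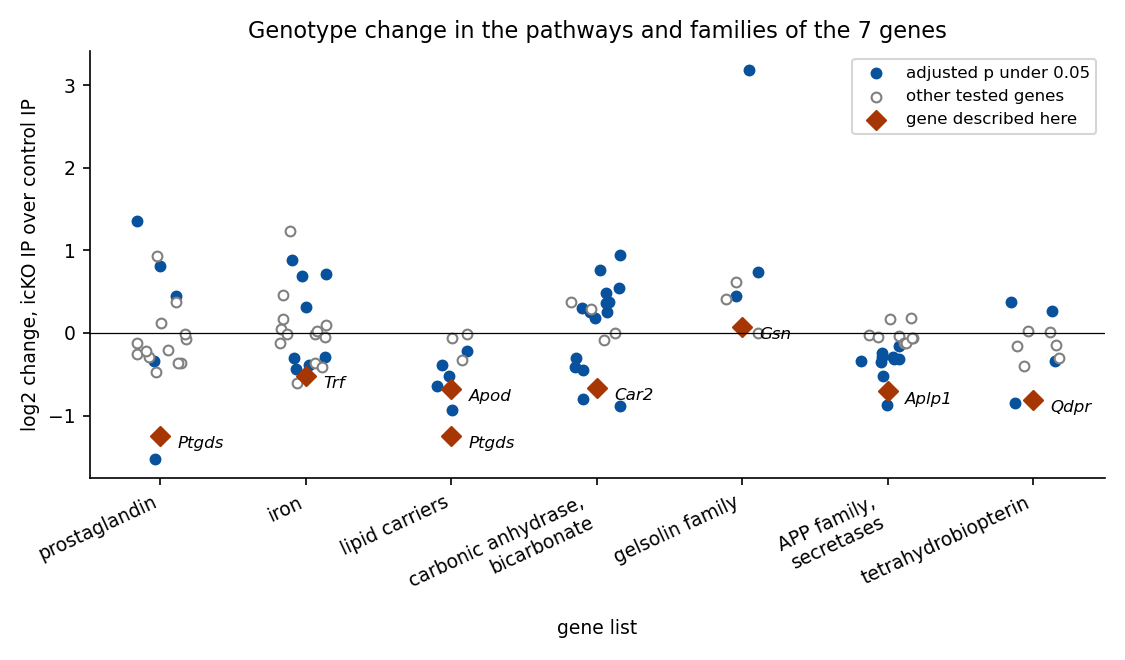
Log2 change of icKO IP over control IP (y axis) for the tested genes of 7 gene lists (x axis); filled circles have an adjusted p under 0.05, open circles do not, and diamonds are the 7 genes described. *Ptgds*, *Car2*, *Aplp1* and *Qdpr* lie near the lower end of their lists, and *Scin* (3.18), of few counts in the control IPs, is the highest point.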

How the data were processed

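RNA of 6 mouse brain libraries (groups and replicate numbers from the sample titles) was read from 1 table of raw counts per gene symbol, which the authors deposited without scaling. The submitters' processing notes name Trimmomatic 0.39, STAR 2.7.10b and the build mm10. For the counter, its annotation, its strand setting and duplicates, nothing is stated in the sources used here. A stranded total RNA kit was used, per the labels' protocols. Of 24421 entries, 10 had no value in the inputs and were left out.

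Counts were scaled with TMM, filtered with filterByExpr and tested with the quasi-likelihood test of edgeR 4.0.16 in R 4.3.3 (Benjamini-Hochberg adjusted p under 0.05 over all genes tested). Genotypes were compared over the 4 IP libraries (2 residual degrees of freedom, common biological coefficient of variation 3.01%), IP and input over 6 libraries with genotype as a term, and single genotypes and the difference of changes over 4 groups. DESeq2 1.42.0 was an alternative. Scales set from gene lists used the median of ratios. Inputs were compared as log2 ratios with a prior count of 2 and exact binomial counting intervals. Exon lengths came from GENCODE M21. The fits were tested on simulated data. Members and gene lists were chosen with earlier results of these data known. Beside the 7 members, genes were named by a rule: in each of the 7 pathway lists the 2 largest rises and 2 largest falls past the threshold at a mean of at least 5 CPM, plus a preset list of well-known genes of these pathways. Genes of like profile were the 3 nearest to each member. A few counts named outside it (*Alas2*, *Slc4a1*, *Cspg4*, *Aqp4*) were chosen with their values known, as were *Lum*, *Ttr*, *Snap25* and *Tubb3*. So were *Slc1a2*, *Camk2a*, *Bsg*, *Col1a1*, *Flii*, *Vill*, *Avil* and *Capg*. Single values of 1 gene that meets this rule are not reported here.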

Additional observations from a re-analysis of the deposited data

Results flagged for a closer look

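The genotype change in the pulled-down RNA differed from that in the homogenate for all 7 genes on the TMM scale, by the test of the difference itself in edgeR's quasi-likelihood model of 4 groups. Changes in IP minus changes in input (log2) were -1.13 for *Ptgds*, -0.89 for *Qdpr*, -0.77 for *Car2*, -0.76 for *Aplp1*, -0.62 for *Trf*, -0.22 for *Apod* and 0.17 for *Gsn*. Each input is 1 library, assumed in the model to vary like the IP pairs. Of all 15936 genes tested, 23.6% passed the same test. The call of *Apod* held in 4 of 9 alternatives and that of *Gsn* in 5 of 9.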

How the results depend on the processing

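Falls of the 6 genes between IPs kept their direction and call under 12 of 13 alternatives each for *Trf*, *Apod*, *Car2* and *Aplp1* and under all 13 for *Ptgds* (-1.33 to -0.52) and *Qdpr* (-0.89 to -0.08). The exception was the scale set from other mature oligodendrocyte genes, which called 13002 genes in place of 7119 and 2 members as higher and 2 as lower: *Trf* was at 0.21, *Apod* at 0.045, *Car2* at 0.060 and *Aplp1* at 0.018. It also turned *Ptges3* (0.39), *Hmox2* (0.29), *Fth1* (0.34), *Fabp5* (0.087), *Itm2b* (0.20), *Spr* (0.39), *App* (0.38), *Aplp2* (0.41), *Bace1* (0.44), *Tfrc* (0.71), *Ftl1* (0.42), *Apoe* (0.20), *Clu* (0.50), *Pts* (0.57) and *Pcbd1* (0.32), by construction, since it adds 0.72 to the typical gene. *Tfrc*, not called, was at 0.017 among genes of at least 5 CPM and between -0.11 and 0.077 with 1 library left out, and *Ptgs2*, not called, between -0.089 and 0.34. No member was called higher with library totals (*Gsn* -0.010) or markers of other cell types (*Gsn* 0.083); with 1 library left out 0 to 1 were (*Gsn* 0.063 to 0.084).

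Against input, the scale from other cell types called 7 members higher and 0 lower over both genotypes (*Ptgds* 2.30, *Apod* 1.67, *Aplp1* 1.93), 0 lower in control (*Apod* 1.84), and 7 higher and 0 lower in icKO (*Ptgds* 1.72, *Apod* 1.51, *Aplp1* 1.51). With 1 library left out, 1 to 3 members were lower, *Ptgds* ran from -0.15 (without the control input) to 0.98 (without the icKO input) and *Aplp1* from -0.36 to 0.39 likewise; without 1 of the IPs *Ptgds* ran from 0.31 to 0.49 and *Aplp1* from -0.047 to 0.068. Without a filter *Ptgds* was called (0.38, adjusted p = 0.0356) and *Aplp1* was at 0.0012; among genes of at least 5 CPM *Aplp1* was at 0.0075. In control, DESeq2 called 0 members lower (*Apod* -0.15). For the difference of changes, DESeq2 called 1709 genes in place of 3763. Its members called higher fell from 1 to 0 with library totals (*Gsn* 0.10), DESeq2 (0.16) and markers of other cell types (0.057), and ran from 0 to 1 with 1 library left out (0.15 to 0.18). *Apod* lost its call there in DESeq2 (-0.23) and among genes of at least 5 CPM (-0.18), and ran from -0.23 to -0.20 with 1 library left out. Relative to other oligodendrocyte genes, alternatives chosen after seeing the data left 1 to 2 members lower with 1 library left out (*Qdpr* -0.099 to -0.065). Levels per longest transcript in control IPs were 808 (*Ptgds*), 757 (*Aplp1*), 286 (*Qdpr*), 273 (*Gsn*), 257 (*Trf*), 141 (*Car2*) and 54.2 CPM per kb (*Apod*). Of genes called between IPs, 46.7% were higher; the share was 32.6% with library totals and 99.3% on the oligodendrocyte scale. The scale from other cell types moved it from 49.8% to 98.6% against input over both genotypes, from 50.3% to 98.5% in control and from 49.9% to 98.4% in icKO. For the difference of changes it was 41.0%, 28.0% with library totals and 21.8% on that scale, which shifted the typical gene by -0.11. Where no cause is named, the cause was not tested.

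The replicate numbers carry no stated pairing and same-numbered IPs did not deviate together (correlation -0.0031). With the replicate block 7277 genes were called in place of 7119, and no member's call between IPs changed. Depth limits genes such as *Scin* and *Gch1*, at under 1 CPM in the control IPs.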
